A study of Homo sapiens with 6 samples.

Results

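The intracellular CLC proteins are membrane exchangers that move chloride into endosomes and lysosomes in return for protons, and this group of 6 genes holds the 5 exchanger genes CLCN3, CLCN4, CLCN5, CLCN6 and CLCN7 together with OSTM1. The members were chosen by gene family with the treated and control values of these samples already known, and they were found by matching symbols to gene identifiers in GENCODE release 29. All 6 have a row among the 18278 genes listed. The measured difference between treated and control samples was therefore part of the choice, and it is given for the members as a description, without p-values.

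Messenger RNA was sequenced from Toledo, an established human line from a diffuse large B cell lymphoma grown in suspension. One group of 3 samples was treated for 6 days with TP-064 at 5 uM, a small molecule inhibitor of the arginine methyltransferase CARM1, and a second group of 3 samples received the solvent DMSO. The study concerned CARM1 inhibition in lymphomas with mutated CREBBP or EP300, 2 genes of histone acetyltransferases, and a single cell line was used here. Nothing in the labels ties replicates to separate cultures, so error bars and p-values cover only sample-to-sample spread, possibly technical.

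Exchangers of this family work beside the vacuolar proton pump, the V-ATPase, which acidifies endosomes and lysosomes. The pump carries positive charge inward, and the chloride brought in by the exchangers balances it and raises luminal chloride. The products of CLCN3, CLCN4 and CLCN5 are closely related and are found on endosomes, and the CLCN4 product is known to pair with that of CLCN3, on which it depends for leaving the endoplasmic reticulum. The CLCN6 product sits on late endosomes and the CLCN7 product on lysosomes, where it is stable only with its partner subunit, the OSTM1 product. Loss of CLCN5 causes the kidney disorder Dent disease, and loss of CLCN7 or OSTM1 causes osteopetrosis, a failure of bone resorption.

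Starts of transcription of 4 members carry the palindrome CACGTG, the E-box bound by helix-loop-helix factors such as MYC, TFEB and TFE3, and these are shown because they include the member that fell and 3 of those that rose. Each stretch runs 5′ to 3′ on the strand of the gene, from 100 bases before the RefSeq start through the first 20 transcribed bases on GRCh38.p14, with the E-box in capitals. The stretches lie at chrX:10156875-10156994 on the plus strand for CLCN4, chrX:50067488-50067607 on the plus strand for a second start of CLCN5, chr1:11806091-11806210 on the plus strand for CLCN6 and chr16:1475009-1475128 on the minus strand for CLCN7.
CLCN4: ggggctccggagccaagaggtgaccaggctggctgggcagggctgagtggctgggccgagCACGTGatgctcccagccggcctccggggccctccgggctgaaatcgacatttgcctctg
CLCN5: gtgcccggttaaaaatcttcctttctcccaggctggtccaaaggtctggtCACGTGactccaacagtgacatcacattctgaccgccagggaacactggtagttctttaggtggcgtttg
CLCN6: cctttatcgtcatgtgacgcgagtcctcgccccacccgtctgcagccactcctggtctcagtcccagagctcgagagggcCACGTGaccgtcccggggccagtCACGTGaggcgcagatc
CLCN7: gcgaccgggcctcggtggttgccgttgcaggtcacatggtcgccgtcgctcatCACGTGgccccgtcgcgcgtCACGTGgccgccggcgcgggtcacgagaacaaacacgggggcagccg

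The E-box was searched in windows of 300 bases, from 250 before to 50 after each start, and stood in 4 of the 9 windows of the members and in 7.26% of the 35116 windows of all genes. It began 40 bases before the start in CLCN4, 50 before in CLCN5, and 47 and 27 before in CLCN7. In CLCN6 it began 20 bases before and 3 bases after. The other starts of CLCN5 had no E-box in their windows, and which start these cells used was not tested. The cyclic AMP response element TGACGTCA was searched as well, and stood 56 bases before the first start of CLCN3 and in 1.85% of all windows. OSTM1 had neither the E-box nor this element in its window. A longer E-box, the CCAAT box and the GC box were searched too, and stood in 0.353%, 34.6% and 45.0% of all windows. The longer E-box stood in a window of CLCN5, and the CCAAT box in windows of CLCN3 and OSTM1. The GC box stood in windows of CLCN3, CLCN5, CLCN6, CLCN7 and OSTM1. The E-box was thus chosen for display among several motifs, and no enrichment is read from its share. The motifs were picked with the windows in view and read on both strands, and a match is a description of letters, not evidence of a bound factor.

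CLCN4 was far lower in the treated samples than in the controls, and the other 5 members rose. Its normalized read counts, gene counts divided by a size factor for each library, were 289, 297 and 291 in TP-064 samples against 2055, 2006 and 2167 in DMSO samples. The mean was 293 ± 3.82 with TP-064 and 2076 ± 82.6 with DMSO (SD, n = 3 each), which is 7.10-fold lower with TP-064. The highest treated sample lay far under the lowest control. The log2 fold change, TP-064 minus DMSO after adding 1 to the normalized read count, was -2.82 (SE 0.05), and 21 of the 16048 genes tested, CLCN4 included, fell by at least as much. The values rest on 331, 300 and 287 recovered reads with TP-064 and on 1979, 2018 and 2004 with DMSO, so that the counting error of each is small beside the difference. The CLCN4 locus is 10156945 to 10237660 of chromosome X, plus strand, and no annotated exon of another gene overlaps its exons.

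Its close relatives of the endosome moved the other way. CLCN5 had 3119, 3179 and 3009 normalized read counts in TP-064 samples against 1760, 1836 and 1800 in DMSO samples, a rise of 1.72-fold and a log2 fold change of 0.79 (SE 0.04). CLCN3 had 5501, 5620 and 5481 in TP-064 samples against 4498, 4499 and 4511 in DMSO samples, a rise of 1.23-fold and a log2 fold change of 0.30 (SE 0.03). Neither gene had an overlap between the groups, and the 3 DMSO samples of CLCN3 differed by a coefficient of variation of 0.152%. CLCN3 is on chromosome 4 from 169612633 to 169723673 and CLCN5 on chromosome X from 49922615 to 50099235, both on the plus strand, so CLCN4 and CLCN5 share a chromosome but not a direction. Exons of CLCN3 and CLCN5 overlap no exon of another annotated gene.

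The lysosomal pair rose together. CLCN7 had 8038, 8135 and 7472 normalized read counts in TP-064 samples against 4068, 3928 and 3965 in DMSO samples, a rise of 1.98-fold with a log2 fold change of 0.98 (SE 0.04). OSTM1, its partner subunit, had 1695, 1759 and 1713 in TP-064 samples against 1017, 1027 and 981 in DMSO samples, a rise of 1.71-fold with a log2 fold change of 0.77 (SE 0.04). In both genes every treated sample was above every control. CLCN7 is on chromosome 16 from 1444934 to 1475580 and OSTM1 on chromosome 6 from 108041409 to 108165854, both on the minus strand.

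CLCN6, the late endosomal exchanger, had the most variable treated samples of the family. Its normalized read counts were 1460, 1247 and 1332 in TP-064 samples against 1045, 1031 and 1025 in DMSO samples, with a coefficient of variation of 7.94% with TP-064 and 1.01% with DMSO. The groups still did not overlap, and the gene rose by 1.30-fold with a log2 fold change of 0.38 (SE 0.06). Its locus is 11806096 to 11848079 of chromosome 1, plus strand. CLCN7 shares 13.8% of its exon bases with the antisense gene AL031600.3, which averaged 7.94 normalized read counts. No source used here gives the strand setting of the counting, so reads of such a partner cannot be told apart from those of the member. The log2 fold change of CLCN6 was 0.32 without TP-064 replicate 1, its highest sample, 0.43 without replicate 2 and 0.38 without replicate 3.

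**Figure D1:**
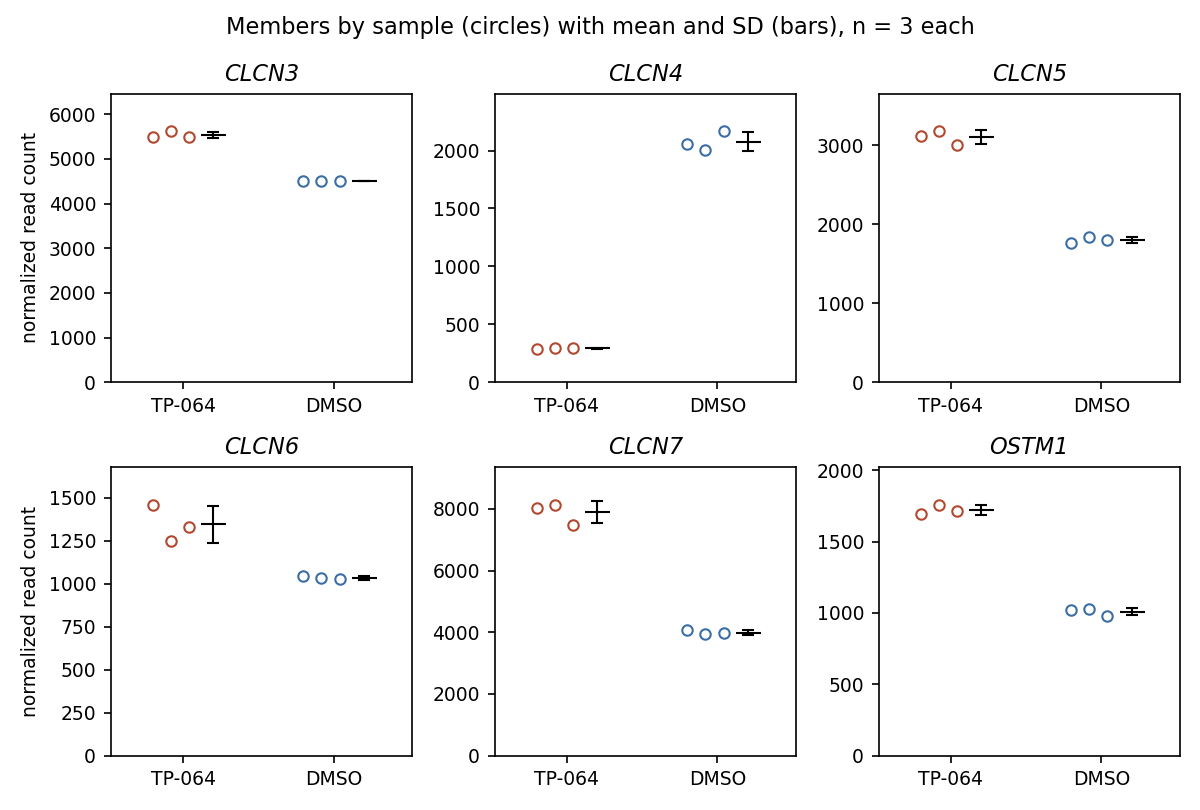
Normalized read count (vertical axes, from 0) of each member in the 3 TP-064 samples, drawn first, and the 3 DMSO samples, with the mean and SD of each group beside the circles. CLCN4 averages 293 with TP-064 and 2076 with DMSO, while the treated samples of the other 5 genes all lie above the controls.

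All 6 members passed the filter on low values, which asked for 10 normalized read counts on average over the samples. At a limma Benjamini-Hochberg adjusted p under 0.05 over all genes, 5 members were called higher and 1 lower. In the same fit 65.1% of the 16048 genes tested were called, 31.9% higher and 33.3% lower. The groups did not overlap in any of the 6 members, as in 69.1% of all genes tested. Since the contrast was part of the choice of the members, nothing is read from these counts. For the size of the changes, 7.08% of tested genes rose at least as much as CLCN7 and 28.3% at least as much as CLCN3.

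Levels of different members were compared after division by length, as normalized read counts per kilobase of annotated exon. After TP-064 the order was CLCN7 at 971 ± 44.1, CLCN3 at 681 ± 9.29, OSTM1 at 323 ± 6.17, CLCN5 at 271 ± 7.53, CLCN6 at 165 ± 13.1 and CLCN4 at 43.1 ± 0.563 per kilobase (SD, n = 3). After DMSO it was CLCN3 at 554 ± 0.840, CLCN7 at 491 ± 8.92, CLCN4 at 306 ± 12.2, OSTM1 at 189 ± 4.57, CLCN5 at 157 ± 3.34 and CLCN6 at 126 ± 1.28 per kilobase (SD, n = 3). CLCN4 was thus the least abundant member with TP-064 and the third with DMSO, and samples of neighbouring genes in each order did not overlap. The annotated exons join all isoforms and may exceed the transcripts present. With the length of the longest transcript in their place, CLCN7 came before CLCN3 with DMSO as well, at 845 and 673 per kilobase, and CLCN6 came before CLCN5 with DMSO, at 184 and 178.

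The endosomal genes shifted in their make-up. CLCN4 held 4.29%, 4.31% and 4.38% of the summed level per kilobase of CLCN3, CLCN4 and CLCN5 in TP-064 samples, against 30.0%, 29.3% and 30.9% in DMSO samples. CLCN5 held 27.2% ± 0.361 of it with TP-064 and 15.5% ± 0.380 with DMSO, and CLCN3 held 68.4% ± 0.318 with TP-064 and 54.5% ± 0.586 with DMSO (SD, n = 3 each). The ratio of CLCN3 to CLCN4 per kilobase was 15.8 ± 0.0879 with TP-064 and 1.81 ± 0.0688 with DMSO (SD, n = 3 each). These shares and ratios lie within a library and do not depend on how libraries were scaled.

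The sum of the 3 endosomal genes itself was 992, 1014 and 981 per kilobase in TP-064 samples against 1010, 1010 and 1032 in DMSO samples, and the groups overlapped. Its direction depended on the scaling and on the length used. With scaling to library size alone the sum was 1042 ± 7.98 with TP-064 and 978 ± 12.9 with DMSO, and with the longest transcripts it was 1177 ± 19.5 with TP-064 and 1158 ± 12.8 with DMSO (SD, n = 3 each). Over all 5 exchangers the sum was 2131 ± 58.1 per kilobase with TP-064 and 1635 ± 13.4 with DMSO (SD, n = 3 each), and CLCN7 alone held 45.5% ± 0.846 of it with TP-064 and 30.0% ± 0.469 with DMSO. The ratio of CLCN7 to OSTM1 per kilobase was 3.11, 3.03 and 2.86 in TP-064 samples against 2.62, 2.51 and 2.65 in DMSO samples, so the lysosomal exchanger was ahead of its partner in each group and by more with TP-064. In libraries made from whole cultures, a change in the amount of RNA per cell and a change in the cells that make up the culture cannot be told apart.

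**Figure D2:**
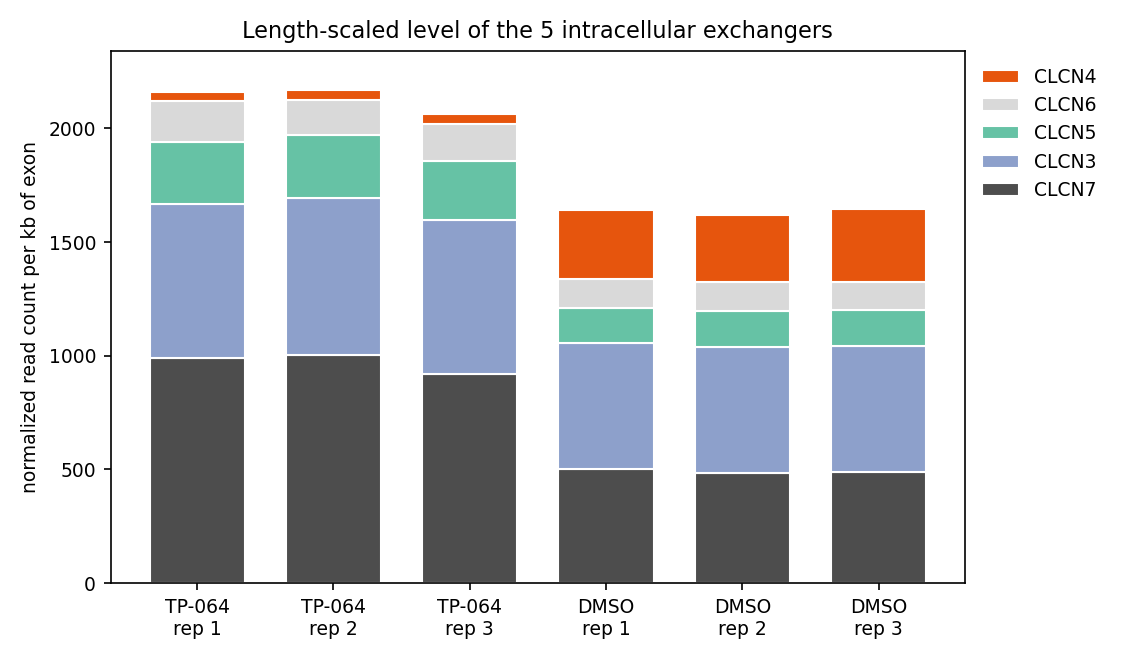
Stacked level of the 5 exchangers per kilobase of annotated exon (vertical axis, normalized read counts per kb, from 0) in each TP-064 sample and each DMSO sample. The CLCN4 segment is 43.1 per kilobase on average with TP-064 and 306 with DMSO, and the CLCN7 segment is 971 with TP-064 and 491 with DMSO.

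The genes with profiles most like CLCN4 and CLCN7 were sought among 12160 tested protein-coding genes, by the Euclidean distance between log2 profiles centred on each gene's mean over the 6 samples. Nearest to CLCN4 were TUBB2B, a beta tubulin, at a distance of 0.197, CDC42BPB, a kinase bound by CDC42, at 0.213, and SH2D4A, an SH2 domain protein, at 0.217. TUBB2B had 60.3, 54.4 and 61.9 normalized read counts in TP-064 samples against 385, 392 and 416 in DMSO samples, and it has near-identical relatives that can share reads. SH2D4A averaged 23.8 ± 1.36 with TP-064 and 162 ± 2.55 with DMSO (SD, n = 3 each).

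Nearest to CLCN7, the member with the largest rise, were SMPD1 at 0.0252, CUX1 at 0.0422 and GAA at 0.0448. SMPD1 encodes acid sphingomyelinase and GAA the acid alpha-glucosidase, both hydrolases of the lysosome, and CUX1 encodes a homeodomain transcription factor. SMPD1 had 1437, 1441 and 1321 normalized read counts in TP-064 samples against 710, 695 and 696 in DMSO samples. GAA averaged 3541 ± 142 with TP-064 and 1832 ± 38.5 with DMSO (SD, n = 3 each). Over 6 samples in 2 groups such likeness is mostly the difference between the groups, shared by many genes.

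**Figure D3:**
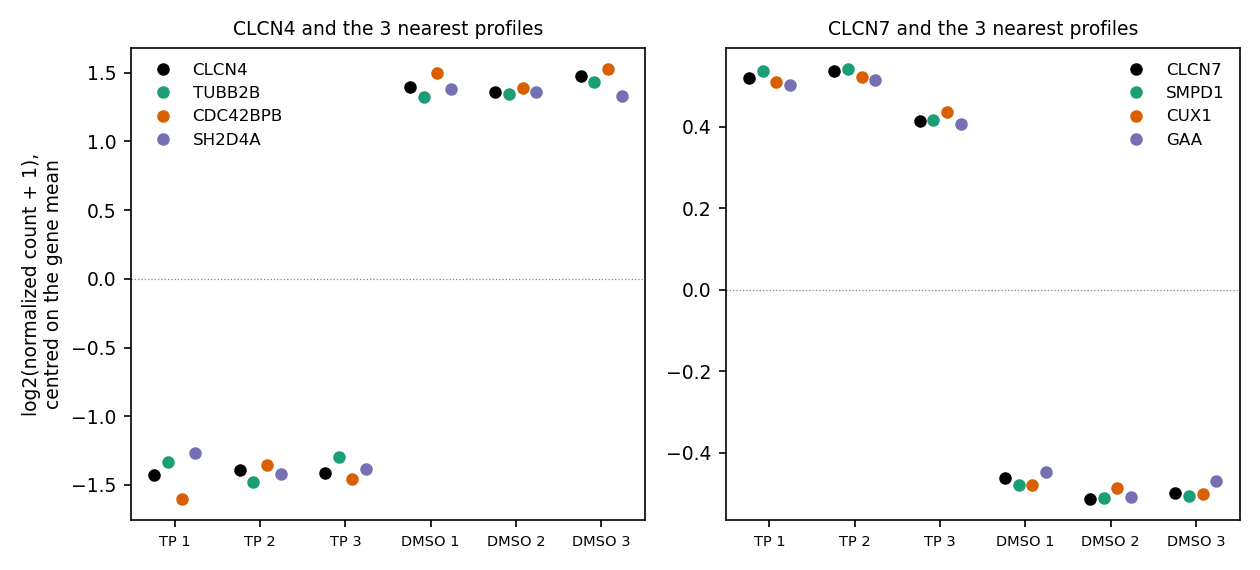
Log2 of the normalized read count plus 1, centred on each gene's mean (vertical axes), in the 3 TP-064 samples and then the 3 DMSO samples, for CLCN4 and CLCN7 (black) with the 3 nearest profiles of each. CLCN4 and its neighbours are low with TP-064, CLCN7 and its neighbours are high.

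Neighbours on the chromosome were read as the nearest tested gene on each side without overlap, with before and after counted along the chromosome whatever the strand, and they moved in both directions. Beside CLCN4, WWC3 lay 12467 bases before the gene and fell by 0.22 on the log2 scale (SE 0.05, limma adjusted p = 0.000835). MID1, a ubiquitin ligase gene that lay 207650 bases after CLCN4, fell by 1.57 (SE 0.15, limma adjusted p = 2.54e-07), with a mean of 43.7 normalized read counts with TP-064 and 132 with DMSO. Beside CLCN3, which rose, NEK1 and HPF1 fell, with log2 fold changes of -0.18 (SE 0.05, limma adjusted p = 0.00247) and -0.66 (SE 0.06, limma adjusted p = 6.76e-08). Beside CLCN7, CCDC154 lay 378 bases before the gene, which is past the 3′ end of CLCN7 on the minus strand. CCDC154 rose by 0.74 (SE 0.27, limma adjusted p = 0.0249) at a low level, 47.5 normalized read counts with TP-064 and 27.9 with DMSO. TELO2, on the other side, had a log2 fold change of -0.08 and did not pass the test (limma adjusted p = 0.113). Beside CLCN5, USP27X rose by 0.58 (limma adjusted p = 0.000120), while CCNB3 had -0.12 and did not pass (limma adjusted p = 0.602). Beside OSTM1, the antisense gene AL024507.2 rose by 0.50 (limma adjusted p = 0.0310), while SNX3 had -0.08 and did not pass (limma adjusted p = 0.0962). Beside CLCN6, C1orf167 was called higher, with a mean of 25.3 normalized read counts with TP-064 and 0.677 with DMSO. C1orf167 passed the filter on a mean of 10 only through its TP-064 samples, so its call carries little weight. The small nuclear RNA gene RNU5E-1 was called lower, with 22.7 normalized read counts with TP-064 and 66.9 with DMSO.

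The partner proteins and surface relatives of the family showed small differences. TMEM9 and TMEM9B, reported as subunits of the endosomal exchangers, averaged 2794 ± 197 and 1499 ± 17.5 normalized read counts with TP-064, against 2638 ± 94.0 and 1358 ± 93.5 with DMSO (SD, n = 3 each). TMEM9B rose by 0.14 on the log2 scale (SE 0.05, limma adjusted p = 0.0221), while TMEM9 had 0.08 (SE 0.05, limma adjusted p = 0.170). The TMEM9B call was lost without DMSO replicate 2, at 0.13, and without DMSO replicate 3, at 0.10, and TMEM9 passed once TP-064 replicate 3 was left out, at 0.14. CLCN2, the one plasma membrane CLC channel with a row, averaged 302 ± 8.12 with TP-064 and 313 ± 16.5 with DMSO (SD, n = 3 each) and did not pass the test (limma adjusted p = 0.587). CLCN2 shares 24.7% of its exon bases, and TMEM9B 7.21%, with a gene on the opposite strand.

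Most genes of the proton pump rose. The background for the counts of this list and the lists that follow is 31.9% of all genes tested called higher and 33.3% called lower. Of 21 tested V-ATPase subunits, 14 rose, 3 fell and 4 did not pass, with a median log2 fold change of 0.28 beside 0.01 for all genes tested. Against a null of a 1.2-fold change, 9 of the 21 were called higher and 3 lower. ATP6V0A1, a subunit of the membrane sector, had 1221, 1198 and 1242 normalized read counts in TP-064 samples against 663, 599 and 588 in DMSO samples, a difference of 0.98 on the log2 scale (SE 0.06, limma adjusted p = 7.44e-10). ATP6AP1, an accessory subunit, rose by 0.58 (limma adjusted p = 9.92e-10) and ATP6V0E2 had -0.60 (limma adjusted p = 3.46e-07). Of 7 assembly factors, 6 rose and 1 did not pass, with a median of 0.21. DMXL2, a part of the complex that assembles the pump, rose by 1.02 (SE 0.06, limma adjusted p = 6.56e-10) and ROGDI by 0.96 (SE 0.07, limma adjusted p = 2.39e-08). ROGDI shares 38.3% of its exon bases with another annotated transcript on the same strand, and ATP6V0E2 shares 12.8% with an antisense gene.

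Other ion carriers of endosomes and lysosomes mostly rose too. Of 13 tested, 9 rose, 2 fell and 2 did not pass, with a median of 0.33. MCOLN2, a mucolipin cation channel, rose by 0.54 (limma adjusted p = 1.03e-07) and TPCN2, a lysosomal cation channel, by 0.56 (limma adjusted p = 2.69e-07).

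Chloride channels and transporters outside the CLC family were divided. Of 18 tested, 4 rose, 9 fell and 5 did not pass, with a median of -0.10, and with scaling to library size alone 7 rose and 6 fell, at a median of 0.02. CLIC4, a chloride intracellular channel protein, changed by -1.14 (SE 0.05, limma adjusted p = 1.50e-11) and SLC12A2, the sodium, potassium and chloride cotransporter, by -0.42 (limma adjusted p = 1.24e-07). SLC26A11, of the SLC26 anion transporters, had 1968, 2078 and 1950 normalized read counts in TP-064 samples against 349, 320 and 331 in DMSO samples, a difference of 2.58 on the log2 scale (SE 0.05, limma adjusted p = 2.17e-14). The groups of SLC26A11 did not overlap.

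Of 12 tested genes that regulate the exchangers or belong to their trafficking, 6 rose, 3 fell and 3 did not pass, with a median of 0.16. FIG4, a phosphoinositide phosphatase that works with the kinase PIKFYVE, rose by 0.71 (limma adjusted p = 3.40e-09), and TFE3, a transcription factor of lysosomal genes, by 0.41 (limma adjusted p = 5.99e-07). TFEB, the related factor named with the E-box above and given here for that reason, had a log2 fold change of -0.27 (limma adjusted p = 9.05e-05). It averaged 1610 ± 71.4 normalized read counts with TP-064 and 1934 ± 43.5 with DMSO (SD, n = 3 each). MYC, named there too, is not reported here, and whether any of these factors acts on the members was not tested. AMN, the membrane partner of the endocytic receptor cubilin, averaged 417 ± 18.7 normalized read counts with TP-064 and 1528 ± 137 with DMSO (SD, n = 3 each), a log2 fold change of -1.87 (limma adjusted p = 3.04e-12). AMN shares 761 exon bases with CDC42BPB on the opposite strand, and both fell. These 7 lists hold 93 genes, drawn up with earlier results of these data known.

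**Figure D4:**
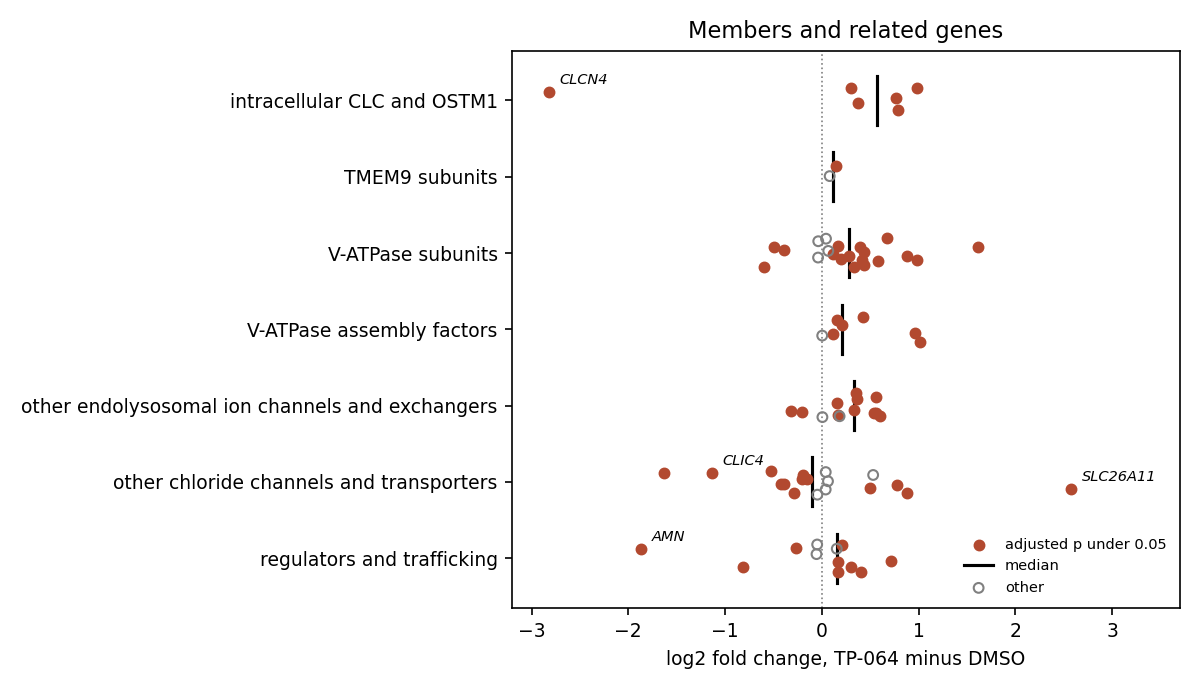
Log2 fold change, TP-064 minus DMSO (horizontal axis), of the members and of the tested genes in 6 related lists. Filled points passed a limma adjusted p of 0.05, open points did not, and black lines are medians, with CLCN4 at -2.82 standing apart from the other members.

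Recovered totals were 41354131 to 48360867 reads per library. The chi-square of reads per degree of freedom between replicates was highest in the pairs with TP-064 replicate 3, at 6.85 and 7.63, and 3.06 to 5.94 in the other pairs, so no library repeats another. The B cell marker CD79B had a high level in each group, at 36619 with TP-064 and 45748 with DMSO (mean normalized read counts). Of 10 markers of other cell types 7 were analysed, and their highest means were 232 for CTSK with TP-064 and 287 for COL1A1 with DMSO. The myeloid marker CSF1R was at 64.3 ± 13.3 with TP-064 and 12.6 ± 6.20 with DMSO (SD, n = 3 each), CD14 at 6.26 with TP-064 and 16.8 with DMSO, and the part of such cells in the results was not tested. Summed over the 7 markers, the level was 508 to 549 normalized read counts in TP-064 samples and 621 to 668 in DMSO samples, and none was at 0 in every sample.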

How the data were processed

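RNA was measured in 3 TP-064 and 3 DMSO samples of Toledo cells. The submitters' processing notes name hg38 as the build and list DESeq 1.18.0, HTSeq 0.6.0 and TopHat2 2.0.10. Annotation release and strand setting: not given in the sources used here. The authors deposited a normalized signal per gene and sample, the read count divided by a size factor. Values were whole multiples of 1 step per column within 0.001, which gave back the reads. For replicate 2 of each group the step lies too near 1 to be told from rounding, so their reads rest on unrounded decimals and recomputed size factors.

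The planned test for normalized values, limma 3.58.1 with trend in R 4.3.3, was run on log2 of the normalized count plus 1, for 16048 genes with a mean of at least 10 (2230 left out), with 4 residual degrees of freedom and two-sided Benjamini-Hochberg adjustment. It was also run on simulated reads with few genes changed, which cannot show how it behaves where 65.1% of genes are called. Symbols were matched for 18214 of 18278 genes. Sequences are from RefSeq. Members and lists were chosen with earlier results of these data known. Named genes are the members, TMEM9 and TMEM9B, for each list up to 2 called genes of smallest p in its main direction and 1 in the other, and the 3 nearest profiles. CLCN2, TFEB, the chromosomal neighbours and the markers are named besides, TFEB after its values were seen. Alternatives used edgeR 4.0.16 and DESeq2 1.42.0 on recovered reads, other scalings, filters and pseudocounts, a null of 1.2-fold, a replicate block and each replicate left out. Some genes that this rule or the overlap of exons would name are not reported here.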

Additional observations from a re-analysis of the deposited data

How the results depend on the processing

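Over 17 settings, the one reported included, the log2 fold change ran from -2.85 to -2.70 for CLCN4, 0.29 to 0.42 for CLCN3, 0.77 to 0.91 for CLCN5, 0.32 to 0.50 for CLCN6, 0.96 to 1.11 for CLCN7 and 0.75 to 0.89 for OSTM1. Each kept its direction throughout. Against a null of a 1.2-fold change, CLCN3 at 0.30 and CLCN6 at 0.38 no longer passed, so 3 members were called higher and 1 lower. Of all 16048 genes tested, 5592 then passed, against 10449 with a null of no change. In the related lists 32 passed, against 57. Nothing is read from the member counts here either, since the contrast was part of the choice of the members. With library size as the only scaling, the median over all genes was 0.13, and it turned CLCN2, which passed under neither scaling, to 0.072. The share of higher among all calls was then 61.5%, and 48.9% with the deposited scaling. TMEM9 passed with library size scaling at 0.20 and in edgeR at 0.11.

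For samples with the same replicate number, the correlations of their deviations from the group means were -0.0859, 0.0659 and -0.0793. For samples with unlike numbers they ran from -0.1145 to 0.1464. With 3 samples in each group, such correlations cannot tell whether samples of the same number shared a batch. The fit with a replicate block called 10491 genes and the same number of members in each direction, and it gave 56 calls in the related lists. Depth does not limit the members, whose lowest library held 287 reads of CLCN4.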
